A study of Homo sapiens with 4 samples.

Results

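Replacement histone variants are made outside S phase and can take the place of the histones that are loaded behind the replication fork. The 8 genes described here encode the replacement variants other than H2A.Z: H2AFX for H2A.X, H2AFY and H2AFY2 for the macroH2A proteins, H2AFJ for H2A.J, H3F3A and H3F3B for H3.3, and H1F0 and H1FX for the linker histones H1.0 and H1X. They were taken by gene symbol, and all 8 were among the 15220 genes with a row in the tables, with 12 transcripts between them. They were read in 2 libraries of PANC-1, an untransduced human pancreatic adenocarcinoma cell line, and in 2 libraries of PZT-2, 1 clone of PANC-1 that carries lentiviral shRNAs, driven by the U6 promoter, against H2A.Z.1 and both H2A.Z.2 isoforms. Both cell lines were grown in DMEM with serum and collected at passage 12 to 13. A line with a scrambled shRNA was not analysed here, so that the knockdown, the transduction and the choice of 1 clone cannot be told apart. The authors call the 2 libraries of a cell line biological replicates, but nothing in the labels says that they came from separate cultures. The errors therefore measure the spread between these libraries, which may be partly technical. The question is whether the RNA of other replacement variants moved where the RNA of H2A.Z fell.

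Unlike the clustered histone genes, whose mRNAs end in a stem-loop without a poly(A) tail, most replacement variant genes give polyadenylated mRNAs alone. That is the form that the poly(A) selection of these libraries captures. H2AFX can also give an mRNA without a poly(A) tail, so its values here cover the polyadenylated form only. H2A.X is phosphorylated around DNA double-strand breaks (γH2A.X). The macroH2A proteins carry a large macro domain and are known for the inactive X chromosome and other silent chromatin. H2A.J is known to accumulate in senescent fibroblasts. H3.3 is placed in transcribed genes by the HIRA complex and at telomeres and silent repeats by DAXX and ATRX. H1.0 accumulates in resting and differentiated cells.

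The recovered estimated counts came to between 12861487.8 and 15717594.33 per library. Replicates differed beyond counting error, with a mean chi-square per gene (1 degree of freedom) of 6.24 in PANC-1 and 3.52 in PZT-2. All 6 epithelial markers were detected in both cell lines, and 4 of them were called lower in PZT-2. CDH1, 1 of these 4, had 103 and 164 reads in PANC-1 and 0 and 19 in PZT-2. The summed level of the 6 markers was 7248 and 7403 TPM, the length-corrected transcript abundance, in PANC-1 and 4058 and 3969 in PZT-2. No acinar or islet marker had a row, PECAM1, the single endothelial marker with a row, stayed at or below 0.236 TPM. CD68, a lysosomal protein and the single immune marker with a row, was at 117 to 130 TPM in all 4 libraries. Of 5 mesenchymal markers, 2 had a row, VIM and COL1A1. They summed to 6407 and 6509 TPM in PANC-1 and to 4879 and 4745 TPM in PZT-2, nearly all of it from VIM. In bulk RNA, fewer cells of a kind and less RNA per cell cannot be told apart.

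Some of the sequences show why these genes can be counted apart although their proteins are alike or the same. H3F3A and H3F3B encode the same protein, but 88 of the 408 bases of their coding sequences differ, so reads separate them (78.4% identical bases). The first 30 coding bases of each, 5′ to 3′, are given with the 6 bases that differ in capitals, H3F3A from chr1:226064352-226064381 (plus strand) and H3F3B from chr17:75779145-75779174 (minus strand) of GRCh38:
H3F3A: atggcTcgTacAaagcagactgcCcgCaaA
H3F3B: atggcCcgAacCaagcagactgcTcgTaaG
H2AFY transcripts carry 1 of 2 alternative exons, of 91 or 100 bases, which set the macroH2A1.1 and macroH2A1.2 proteins apart. The macroH2A1.1 form, with the 91-base exon, can bind ADP-ribose in its macro domain and the other form cannot. The first 30 bases of each exon are shown with the 17 bases that differ in capitals, the 91-base exon from chr5:135350884-135350913 and the 100-base exon from chr5:135353016-135353045, both on the minus strand of GRCh38:
91-base exon: TtgCaAGttGtAcaGGCtgaCatTGCCTCG
100-base exon: CtgAaCCttAtTcaCAGtgaAatCAGTAAT
The end of the H2AFX coding sequence, chr11:119094966-119094995 on the minus strand, sets H2A.X apart from the other replacement variants of H2A, and its capitals mark the codon of the serine that is phosphorylated at breaks:
H2AFX: aagaaggccacccaggccTCCcaggagtac

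The knockdown is the background to all values below. H2AFZ, the gene of H2A.Z.1, had normalized counts of 6390 and 6034 in PANC-1 and of 2212 and 2259 in PZT-2, which is -1.47 on the log2 scale. H2AFV, the gene of H2A.Z.2, had 3343 and 3452 in PANC-1 and 2589 and 2718 in PZT-2, or -0.36 on the log2 scale (adjusted p = 0.00572, and up to 0.0588 over the alternatives). Normalized counts are counts scaled to the mean library, and every log2 fold change is PZT-2 against PANC-1.

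Among the other replacement variants, 2 of 8 genes passed the test, H1FX higher in PZT-2 and H2AFJ lower. Of the 15089 genes tested, 28.4% passed it, 14.7% higher and 13.7% lower, so that the members' share of 25% was near the background. The libraries of the cell lines did not overlap for 6 of the 8 genes, against 66.3% of all genes, with PZT-2 below PANC-1 for 5 and above for 1. These directions depend in part on the scaling. In TPM, H3F3A, counted among those below, overlapped, and PZT-2 was above PANC-1 for H3F3B, also counted below, and for H1F0. An unadjusted p under 0.05 was reached by 4 of the 8, against 40.6% of all genes. The median log2 fold change was -0.04 over the 8 and 0.00 over all genes, and the median size without sign was 0.21 against 0.28. The fitted values of H2AFJ, H1FX and H2AFY2 were larger than that median size, and the value of H2AFY2 did not pass the test. With PZT-2 replicate 1 or replicate 2 left out, 1 of the 8 was called, while the share of all genes called was 15.9% and 12.9%. With PANC-1 replicate 1 left out, 5 of the 8 were called, against 31.4% of all genes, and with PANC-1 replicate 2 left out 2 of the 8, against 31.5%.

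**Figure D1:**
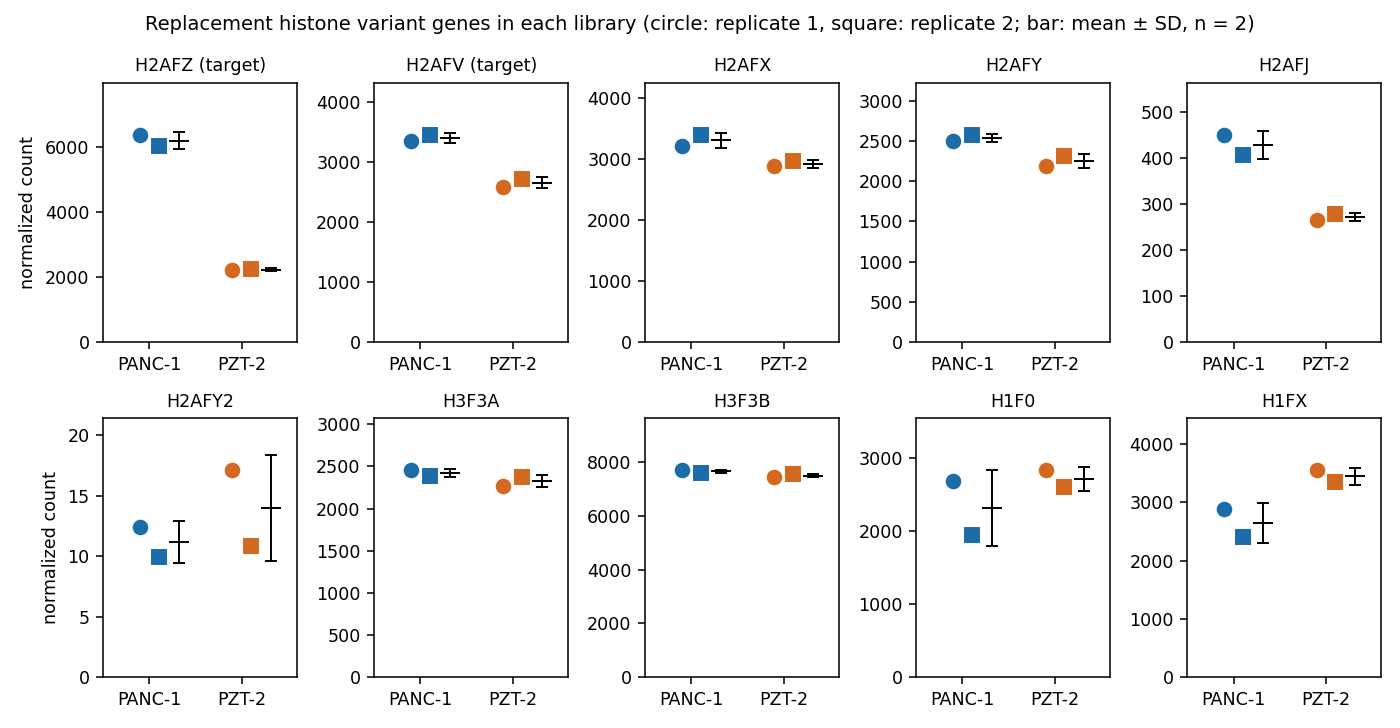
Normalized counts of the 8 genes and of the knockdown targets H2AFZ and H2AFV in each library (y axis from 0; circles, replicate 1; squares, replicate 2; black bars, mean ± SD, n = 2). H2AFJ sits near 429 in PANC-1 and 273 in PZT-2, H1FX near 2642 and 3444, and the H3.3 genes stay at nearly the same height in both cell lines.

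**Figure D2:**
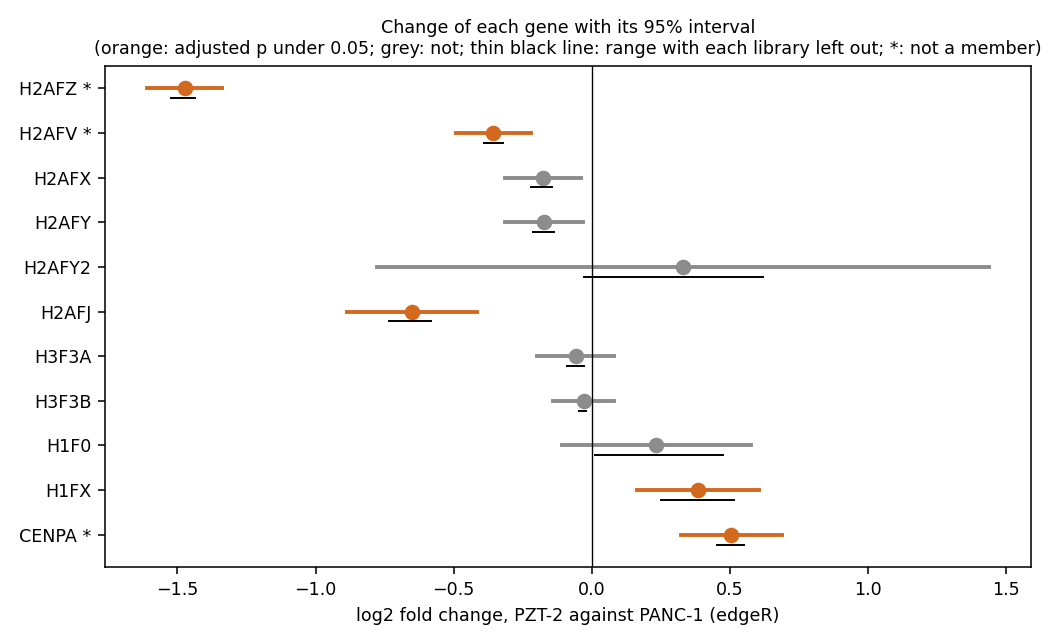
Log2 fold change of each gene, PZT-2 against PANC-1, with its 95% interval (coloured lines) and the range of the value when each library is left out in turn (thin black lines). Of the 8 genes, H2AFJ at -0.65 and H1FX at 0.38 pass an adjusted p of 0.05 (orange), and the interval of H2AFY2 is the widest of those drawn.

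H2AFJ was the gene that fell. It lies on chromosome 12 (chr12:14774383-14778002, plus strand, GRCh38). Its normalized count was 451 and 408 in PANC-1 and 267 and 279 in PZT-2. Both PZT-2 libraries were below both PANC-1 libraries, by more than the spread of either pair. The log2 fold change was -0.65 (standard error 0.0980, 95% interval -0.89 to -0.42, adjusted p = 0.00463), and 18.8% of all genes changed by more. Leaving out each library in turn kept the value between -0.73 and -0.58, with the call kept each time. The level was low for this family, at 15.7 ± 1.03 TPM in PANC-1 and 10.2 ± 0.341 TPM in PZT-2 (SD, n = 2).

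The 2 RefSeq transcripts of H2AFJ had unlike values, though the difference between them was not tested. NM_177925, the coding entry of 3699 bases, had normalized counts of 228 and 297 in PANC-1 and 227 and 211 in PZT-2. These lie close together, with PANC-1 replicate 1 almost level with PZT-2 replicate 1. NR_027716, the entry that RefSeq classes as non-coding, is 314 bases shorter because an intron (chr12:14774977-14775290, GRCh38) is spliced out. It had 223 and 113 in PANC-1 and 39.2 and 67.0 in PZT-2, with the PANC-1 libraries far apart. Its share of the H2AFJ TPM was 51.6% and 29.4% in PANC-1 and 16.1% and 25.8% in PZT-2. The log2 fold change was -0.26 (adjusted p = 0.62 over all transcripts) for NM_177925 and -1.65 (adjusted p = 0.231) for NR_027716. With the most abundant transcript alone in place of the sum, H2AFJ was no longer called (-0.26, adjusted p = 0.238). The lengths of the entries differ by this intron alone, and the split of reads between them is an estimate.

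H1FX was the gene that rose. This single-exon gene of the linker histone H1X lies on chromosome 3 (chr3:129314771-129316277, minus strand). Its normalized count was 2880 and 2405 in PANC-1 and 3548 and 3339 in PZT-2. Both PZT-2 libraries were above both PANC-1 libraries, while PANC-1 replicate 2 was the lowest by some distance. The log2 fold change was 0.38 (standard error 0.0919, 95% interval 0.16 to 0.60, adjusted p = 0.0238). The call was lost without PZT-2 replicate 1 (0.34, adjusted p = 0.121) and without PZT-2 replicate 2 (0.43, adjusted p = 0.0788), and the value ranged from 0.25 to 0.51 over the 4 omissions. The 833 genes tested on chromosome 3 had a median log2 fold change of 0.43, above the value of H1FX, against 0.00 over all genes. The part of this shift in the rise of H1FX was not tested.

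H1F0, the gene of H1.0, lies on chromosome 22 (chr22:37805093-37807436, plus strand, 1 exon) and did not pass the test. Its normalized count was 2685 and 1950 in PANC-1 and 2837 and 2603 in PZT-2. The cell lines overlapped on this scale, since PANC-1 replicate 1 lay between the PZT-2 libraries. In TPM they did not, with 151 and 113 in PANC-1 and 169 and 154 in PZT-2. The log2 fold change of 0.23 (standard error 0.142, 95% interval -0.11 to 0.58, adjusted p = 0.275) therefore rested on PANC-1 replicate 2. Without PANC-1 replicate 1 it was 0.47 and called (adjusted p = 0.000457), and without PANC-1 replicate 2 it was 0.01. H1FX made up 63.1% and 66.3% of the summed TPM of both linker variants in PANC-1 and 66.6% and 67.2% in PZT-2. Their summed level was 410 and 336 TPM in PANC-1 and 507 and 471 TPM in PZT-2, higher in both PZT-2 libraries.

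H2AFX and H2AFY were lower in both PZT-2 libraries by a small step that did not pass the test. H2AFX (chr11:119093854-119095467, minus strand, 1 exon) had normalized counts of 3220 and 3397 in PANC-1 and 2880 and 2973 in PZT-2. Its log2 fold change was -0.18 (standard error 0.0574, 95% interval -0.32 to -0.04, adjusted p = 0.0624). It was called without PANC-1 replicate 1 (adjusted p = 0.0132) and when at least 10 counts were asked of all 4 libraries (adjusted p = 0.0476). On the TPM scale the difference was smaller beside the spread, with 265 and 288 in PANC-1 and 251 and 257 in PZT-2. Of all genes, 66.3% changed by more than H2AFX.

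H2AFY (chr5:135333900-135399914, minus strand, 9 exons) had normalized counts of 2506 and 2578 in PANC-1 and 2191 and 2315 in PZT-2. Its log2 fold change was -0.17 (standard error 0.0590, 95% interval -0.32 to -0.03, adjusted p = 0.0708), and it was called without PANC-1 replicate 1 (adjusted p = 0.0296). The 683 genes tested on chromosome 5 had a median of -0.13, whose part in this value was not tested. Beneath the gene's value the alternative exons differed in their values. The macroH2A1.1 transcript, NM_138609, whose 91-base exon is shown above, had 878 and 878 in PANC-1 and 677 and 712 in PZT-2. All PANC-1 values were above all PZT-2 values, with nearly no spread in PANC-1. Among all transcripts, NM_138609 did not pass edgeR's test (-0.34, adjusted p = 0.114). A test among the genes, in place of the whole of H2AFY, was added with the values in view. There the transcript fell by 0.34 on the log2 scale (standard error 0.0686, adjusted p = 0.0133). The call was lost without PZT-2 replicate 1 (-0.30, adjusted p = 0.087) and without PZT-2 replicate 2 (-0.37, adjusted p = 0.0624).

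The 3 transcripts with the 100-base exon summed to 1628 and 1700 in PANC-1 and to 1514 and 1603 in PZT-2. The highest PZT-2 value lay just under the lowest of PANC-1, and the sum did not pass the test, with a log2 fold change of -0.10 (standard error 0.0634, 95% interval -0.25 to 0.06, adjusted p = 0.316). The difference between both exon forms was not itself tested. Within the group, NM_001040158 was at 1174 and 1296 in PANC-1 and 1077 and 1065 in PZT-2. NM_138610, which has 1 codon more (372 against 371), stood at 421 and 401 in PANC-1 and at 434 and 533 in PZT-2, the one H2AFY transcript whose PZT-2 values were the higher ones. Its log2 fold change was 0.24 and did not pass edgeR's test (adjusted p = 0.513 over all transcripts). Entries this alike (1940 and 1937 bases) share most reads, and the split of reads between them is an estimate. NM_004893, given 32.6 and 10.9 in PANC-1, was listed at 0 in both PZT-2 libraries. The macroH2A1.1 share of the H2AFY TPM was 35.1% and 34.1% in PANC-1 and 31.0% and 30.8% in PZT-2, lower by 3.72 percentage points on average.

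Transcript by transcript, none of the 12 transcripts of the 8 genes passed edgeR's test, which called 0.148% of 30371 transcripts. An unadjusted p under 0.05 was reached by 6 of the 12, against 18.5% of all transcripts, and DESeq2 called 5 of the 12, against 14.4% of all. These 5 were NM_138609 and NM_004893 of H2AFY, NR_027716 of H2AFJ and the transcripts of H2AFX and H1FX. The values of NM_004893 and NR_027716 rest on the estimated split of reads between entries. The background of all transcripts was not matched to the members by count. By gene, the members' shares were 25% against 28.4% called and 50% against 40.6% at an unadjusted p under 0.05.

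H2AFY2, the gene of macroH2A2 on chromosome 10 (chr10:70052796-70112280, plus strand, 9 exons), was close to the limit of detection. It had 11 and 11 reads in PANC-1 and 17 and 11 in PZT-2, which gave levels between 0.622 and 1.10 TPM. The log2 fold change of 0.33 had a 95% interval from -0.78 to 1.44 (adjusted p = 0.644) and turned to -0.03 without PZT-2 replicate 1. No difference of H2AFY2 was detectable at this depth, and a rise of 2-fold lies within the interval.

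The H3.3 genes had the smallest changes of the 8. H3F3A (chr1:226061851-226072001, plus strand, 4 exons) had normalized counts of 2457 and 2391 in PANC-1 and 2273 and 2379 in PZT-2. PZT-2 replicate 2 came within a few counts of PANC-1 replicate 2, and the log2 fold change was -0.06 (standard error 0.0576, 95% interval -0.20 to 0.08, adjusted p = 0.497). H3F3B (chr17:75776434-75785893, minus strand, 4 exons) had 7687 and 7597 in PANC-1 and 7440 and 7533 in PZT-2, or -0.03 on the log2 scale (standard error 0.0457, 95% interval -0.14 to 0.08, adjusted p = 0.678). Of all genes, 87.8% changed by more than H3F3A and 93.4% by more than H3F3B. On the TPM scale H3F3B was slightly higher in PZT-2, with 343 and 350 in PANC-1 and 352 and 354 in PZT-2, so that its sign depends on the scaling.

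Since both genes give the same protein, their sum is the quantity closest to the H3.3 message. Summed and tested as 1 gene, the log2 fold change was -0.04 (standard error 0.0446, 95% interval -0.14 to 0.07, adjusted p = 0.591). In TPM the sum was 670 and 679 in PANC-1 and 673 and 689 in PZT-2, and the cell lines overlapped. H3F3A supplied 48.8% and 48.5% of it in PANC-1 and 47.8% and 48.6% in PZT-2. H3F3C, a near-identical retrogene copy of H3.3 on chromosome 12, had 5 and 2 reads in PANC-1 and 6 and 5 in PZT-2 and was too low to be tested.

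Per length, the order of the 8 genes in PANC-1 ran from H3F3B (347 ± 4.41 TPM, SD, n = 2) and H3F3A (328 ± 1.83) through H2AFX (276 ± 16.7), H1FX (241 ± 25.1), H2AFY (178 ± 7.49) and H1F0 (132 ± 26.9) to H2AFJ (15.7 ± 1.03) and H2AFY2 (0.687 ± 0.0913). In PANC-1 the libraries of neighbouring genes in this order did not overlap, though the ranges of H2AFX and H1FX came within their SDs. In PZT-2, H1FX (327 ± 15.1 TPM) stood above H2AFX (254 ± 4.73 TPM) and overlapped H3F3A (328 ± 9.56 TPM), and H1F0 (162 ± 10.5 TPM) overlapped H2AFY (164 ± 5.71 TPM). The other places were as in PANC-1. The 8 genes summed to 1535 and 1503 TPM in PANC-1 and to 1602 and 1597 TPM in PZT-2. On the TPM scale all genes shift toward PZT-2 by a median of 0.055 to 0.056 log2 against the main fit. The higher sum can therefore not be read apart from the scaling.

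Within H2A, the summed level of the replacement genes other than H2A.Z was not higher in PZT-2. H2AFZ and H2AFV together went from 1269 and 1260 TPM in PANC-1 to 601 and 617 TPM in PZT-2. The 4 other replacement H2A genes summed to 455 and 487 TPM in PANC-1 and to 422 and 437 TPM in PZT-2, with both PZT-2 values below those of PANC-1. Of the TPM of all 6 genes, the H2A.Z share went from 72.9 ± 1.06% to 58.6 ± 0.14% (SD, n = 2). H2AFX made up 15.9% of the pool on average in PANC-1 and 24.5% in PZT-2, and H2AFY 10.3% and 15.8%. H2AFV, whose own level was lower, still had a larger share of the pool in PZT-2 (23.4%) than in PANC-1 (16.7%), beside a share of H2AFZ of 56.2% in PANC-1 and 35.2% in PZT-2.

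The machinery that places or marks these variants was described by 6 lists of genes and a list of clustered histone genes, with 62 genes tested in all. Of these 62, 21 were called, 8 higher and 13 lower, beside 28.4% of all genes. The number called fell or rose with the library left out, as did the number called among all genes. DEK, EYA3, RNF168, TP53BP1 and CENPA kept an adjusted p under 0.05 in every alternative, and the other 16 did not in at least 1 of them. TP53BP1 is named here after its values were seen.

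For H3.3 deposition, 2 of 8 genes were called, both lower, and the median log2 fold change was -0.14. ATRX, which with DAXX loads H3.3 at silent repeats, had normalized counts of 424 and 394 in PANC-1 and 294 and 230 in PZT-2 (-0.64, adjusted p = 0.0141). DEK, which keeps H3.3 from being misplaced, had 1291 and 1324 in PANC-1 and 954 and 943 in PZT-2 (-0.46, adjusted p = 0.00287). The PZT-2 values of both genes were below those of PANC-1, and the remaining 6 genes, those of the HIRA complex among them, did not pass the test.

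For the chaperones that work at the replication fork or on histones in general, 1 of 13 genes was called higher and 3 lower, with a median of 0.07. CHAF1B, a subunit of the chromatin assembly factor CAF-1, had 521 and 537 in PANC-1 and 630 and 626 in PZT-2 (0.25, adjusted p = 0.0476). SSRP1, a subunit of the FACT complex, was lower (-0.32, adjusted p = 0.00521), as were NAP1L1, a carrier of H2A-H2B dimers (-0.26, adjusted p = 0.00993), and IPO4, the importin of H3-H4 (-0.37, adjusted p = 0.00645).

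For the kinases, phosphatases and readers of H2A.X, 16 of 17 genes had enough reads, and 3 were called higher and 4 lower, with a median of -0.11. ATM, the main kinase of H2A.X at breaks, had 722 and 785 in PANC-1 and 535 and 390 in PZT-2 (-0.71, adjusted p = 0.0142). EYA1 and EYA3, tyrosine phosphatases of H2A.X, were lower too. EYA1 had 49.5 and 55.1 in PANC-1 and 0 and 9.89 in PZT-2 (-3.36, adjusted p = 0.0233). The size of its change is poorly fixed with PZT-2 replicate 1 at 0, since it was -2.39 without that library and DESeq2 did not call the gene (adjusted p = 0.241). EYA3 had 304 and 387 in PANC-1 and 162 and 187 in PZT-2 (-0.99, adjusted p = 0.00499). RNF168, a ubiquitin ligase that acts on H2A around breaks, had 219 and 236 in PANC-1 and 405 and 389 in PZT-2 (0.80, adjusted p = 0.00218). It lies on chromosome 3, as H1FX does.

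For macroH2A, 1 of 8 splicing factors and partners was called higher and 1 lower, with a median of -0.01. QKI, a splicing factor known to favour the macroH2A1.1 exon, had 1374 and 1479 in PANC-1 and 1136 and 1108 in PZT-2 (-0.35, adjusted p = 0.0105). DDX5, a helicase that with DDX17 also acts on macroH2A1 splicing, had 4150 and 4302 in PANC-1 and 5146 and 5597 in PZT-2 (0.35, adjusted p = 0.00807). Their values moved in opposite directions beside the lower macroH2A1.1 share, and whether either has a part in it was not tested.

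Among 7 factors of the clustered histone mRNAs, 2 were called higher and 1 lower, with a median of 0.25. NPAT, the activator of the clustered genes in S phase, was lower (-0.67, adjusted p = 0.0196), and LSM10 and LSM11, proteins of the U7 particle that cuts the mRNA 3′ ends, were higher (0.31, adjusted p = 0.0308, and 0.59, adjusted p = 0.0207). Of the clustered H2A, H3 and H1 genes themselves, 9 were tested and 2 were called, both lower, with a median of -0.13. HIST1H1C, which gives the linker histone H1.2, had 182 and 160 in PANC-1 and 110 and 108 in PZT-2 (-0.65, adjusted p = 0.0156), and HIST2H3D had 32.6 and 33.4 in PANC-1 and 13.1 and 8.90 in PZT-2 (-1.58, adjusted p = 0.0215). HIST2H2AA3 and HIST2H2AA4 had identical values in every library, so that these copies cannot be told apart. Poly(A)-selected libraries hold only a part of these mRNAs.

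Of 13 centromeric and germline variants, 2 had a row and 1 was tested. CENPA, the H3 variant of centromeres, had 650 and 613 in PANC-1 and 865 and 926 in PZT-2, both higher than in PANC-1 (0.51, standard error 0.0756, adjusted p = 0.00457). Its adjusted p was at most 0.0403 over the alternatives. The 956 genes tested on chromosome 2, where CENPA lies, had a median of 0.12, whose part in this value was not tested.

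For the called genes, those with the nearest pattern over the 4 libraries were found by the distance between centred log2 CPM values (counts scaled to library size) among 10045 genes. Nearest to H2AFJ were DKK1 (distance 0.0442), LY6E (0.0449) and UNC13D (0.0457), on chromosomes 10, 8 and 17. Nearest to H1FX were APOBEC3F (0.0292), PSAP (0.0344) and BCL6 (0.0377), on chromosomes 22, 10 and 3. APOBEC3F and BCL6 did not themselves pass edgeR's test (adjusted p = 0.0934 and 0.0823). With 4 libraries in 2 groups, many genes of like change lie close to each other.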

How the data were processed

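PANC-1 and PZT-2 mRNA (2 libraries each, by label) had been read as 76 nt pairs from stranded, poly(A)-selected libraries. The authors trimmed reads with Trim Galore 0.4.1 and estimated RefSeq transcript abundance with kallisto 0.43.0, and sleuth 0.29.0 made the comparison. The processing notes name hg19, while positions and sequences given here come from GENCODE 29 on GRCh38. The authors deposited estimated counts and TPM per transcript and library, with other values such as effective lengths. The deposited estimated counts carry 1 factor per library (1.16, 0.935, 1.03 and 1.01), as sleuth exports them, which was undone. Single-transcript values between 0.5 and 30 were then whole to within 0.01 in 40.9% to 42.4% of cases, against 0.916% to 2.39% before. Deposited columns with the authors' own comparison (effects, p and q values) were not used.

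Of 31077 transcripts, 27049 were named by the table, 3925 by RefSeq accession (GRCh38.p14), and 103, with 0.0466% of the counts, stayed unnamed. Counts were summed per gene and rounded, TPM were rescaled to the same sum per library, and genes that reached 5 counts in 2 or more libraries were tested with edgeR 4.0.16 in R 4.3.3 (TMM, legacy quasi-likelihood test, Benjamini-Hochberg adjustment over all genes or all transcripts, threshold 0.05). An exact permutation test of 2 against 2 libraries cannot go below p = 0.333, so single values were not tested by it. The test was checked on simulated counts in which 200 genes or 200 transcripts changed 2-fold. The changed features were drawn from those with higher counts, and the counts followed the test's own model with the spread fitted here. Smaller changes, and genes of few reads such as H2AFY2, were therefore not covered. The test recovered 195 of the genes, with 10 false calls. Of the transcripts it recovered 48, with 3 false calls, so that most such changes of transcripts were missed. Alternatives were DESeq2 1.42.0, RLE size factors, limma 3.58.1 on log2(TPM + 1) and log2(TPM + 0.1), other filters, a 2-fold minimum, the most abundant transcript alone, a replicate block, each library left out, and the deposited counts as they stand. Chosen with the values in view were the version 4 dispersion of edgeR, shares from normalized counts and the sums of H2AFY transcripts by exon and of H3F3A with H3F3B. Genes named are the 8 members, H2AFZ, H2AFV, CENPA, H3F3C, up to 4 called genes with the largest change per list and the 3 nearest genes to the called members at a mean normalized count of 100 or more. The members and lists were chosen with earlier results of these data known.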

Additional observations from a re-analysis of the deposited data

How the results depend on the processing

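Leaving out each library in turn moved the genes called, 4288 with all libraries, between 1915 and 4664, the members called between 1 and 5 (5 without PANC-1 replicate 1: H2AFX, H2AFY, H2AFJ, H1F0 and H1FX), and the 21 list genes called between 7 and 30. The most abundant transcript alone left 1 member called and a 2-fold minimum 0. The 45 transcripts called became 4373 with DESeq2, 1214 with at least 10 counts in all 4 libraries, 19 with the deposited values, 353 with the version 4 dispersion, 348 with limma on log2(TPM + 1), 0 with each library left out (4125 to 5699 at an unadjusted p under 0.05) and 0 with a replicate block (4055). By normalized counts the H2A.Z share of the 6 genes fell by 13.2 percentage points, against 14.2 by TPM. Reversed were H2AFY2 without PZT-2 replicate 1 (-0.028, within a range of -0.028 to 0.62 over the libraries left out) and, with limma on TPM, H3F3A (6.62e-05 and 6.68e-05) and H3F3B (0.0257 at both pseudocounts), where the median of all genes shifts by 0.055 to 0.056. The replicate numbers pair nothing in the labels and same-numbered libraries did not deviate together (r = -0.05 over 10625 genes). A replicate block gave 3705 genes, 2 members and 20 list genes. With 2 libraries per cell line and 11 to 17 reads, H2AFY2 is limited by depth.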
